A study of Mus musculus with 12 samples.

Results

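Transcripts of 10 matrix-binding integrin subunits were measured in the growing mammary gland. They were the alpha subunits Itga2, Itga3, Itga5, Itga7, Itga9 and Itgav and the beta subunits Itgb1, Itgb3, Itgb5 and Itgb6, and every probe with one of these symbols in the platform annotation was taken. That gave 14 of the 17589 probes on the array and 10 of the 12913 genes with a symbol. Itgav had 3 probes, Itgb1 and Itgb6 had 2 each, and the other 7 genes had 1 each. Probes of one gene are told apart below by their GenBank accession.

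The arrays had 2 colours, and there were 12 of them. On 6 arrays the Cy5 channel held RNA of terminal end buds, the bulbous growing tips of the mammary tree, and on 6 arrays it held RNA of mature ducts, the tubes that the tips leave behind. The Cy3 channel of all 12 held RNA of distal stroma free of epithelium. All tissue came from glands of mice aged 5 weeks, and the mice carried a B-actin-GFP reporter that made the tree visible for microdissection. The labels name no treatment and no dye swap, and nothing in them shows that each array had its own animals. The p-values therefore speak of the scatter among these 12 arrays, part or all of which can be technical. Stroma served only as the reference channel. Every comparison with it treats it as 1 control sample and leaves out how stroma itself varies.

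Integrins are receptors in the cell membrane, each made of an alpha and a beta chain, that hold cells to the matrix and pass signals across the membrane. Itgb1 pairs with many alpha chains. With Itga3 or Itga7 it binds laminins of basement membranes, with Itga2 it binds collagens, with Itga5 it binds fibronectin, and with Itga9 it binds tenascin and other ligands. Itgav pairs with Itgb1, Itgb3, Itgb5 or Itgb6 and recognises the RGD motif in vitronectin, fibronectin and latent TGF-beta. In the mammary gland a basement membrane separates the epithelium from the stroma, and the basal cells that lie on it are known for high integrin levels. Inside the cell, talin and kindlin bind the beta tail and link it to actin through adaptors and kinases.

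Values are the deposited ratios of the structure over distal stroma, taken as log2, on which 0 is the stromal level and 1 is a doubling. The array medians lay between 0.01 and 0.02. Ratios show unequal abundance and give no level of one probe against another. The epithelial side of the tissue labels was borne out by Krt8, a luminal keratin, at 6.16 on average in terminal end buds and 4.96 in ducts. Krt14, a basal keratin, was at 1.502 and 2.79. Pecam1, an endothelial gene, stood at -1.70 and -0.46, and Fabp4, an adipocyte gene, at -2.13 and -0.82. Fibroblast genes were not depleted in this way: Col1a1, a fibroblast collagen, was above stroma in both structures, at 1.47 and 0.77. Of 16 fibroblast markers, 8 were higher and 2 lower than stroma in terminal end buds by the test given below. In ducts 11 were higher and 0 lower. Arrays of terminal end buds correlated with each other at 0.65 to 0.88 over all probes, arrays of ducts at 0.60 to 0.82, and arrays of different structures at 0.43 to 0.71. The spread over all probes was wider on terminal end bud arrays, with an SD of 0.54 to 0.64, than on duct arrays, with an SD of 0.38 to 0.48.

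In terminal end buds 7 of the 10 genes were higher than in stroma by at least 1 probe: Itga3, Itga5, Itga9, Itgav, Itgb3, Itgb5 and Itgb6. Itga7 was lower. By probe this was 9 higher, 1 lower and 4 not past the threshold, an adjusted p of 0.05 in limma's moderated test with Benjamini-Hochberg adjustment over all probes. Over all probes 43.6% were called, 23.2% higher and 20.4% lower. The median of the 14 was 0.26, against 0.02 over all probes. In ducts 7 genes were higher (Itga2, Itga3, Itga5, Itga9, Itgav, Itgb1 and Itgb5) and Itga7 was again lower, with 7 probes higher, 1 lower and a median of 0.18, where 28.2% of all probes were called, 16.0% higher and 12.2% lower.

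Between the structures, Itga3 and Itga5 were higher in terminal end buds and Itga7 was lower, and the other 11 probes did not pass. This was 21.4% of the member probes beside 18.7% of all probes (8.32% higher and 10.4% lower), so the share called among the integrins was close to that of the array. The calls depended on the scale of the arrays. The split of higher to lower calls was 2 to 1 as deposited, 3 to 1 with each array centred on its median, 1 to 0 after quantile normalization and 1 to 1 after bringing the arrays to a common spread. Only Itga5 and the Itgav probe AK011583 had values that did not overlap between the groups. That was 2 of 14 probes, both higher in terminal end buds, beside 10.2% of all probes (4.42% higher and 5.79% lower).

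**Figure D1:**
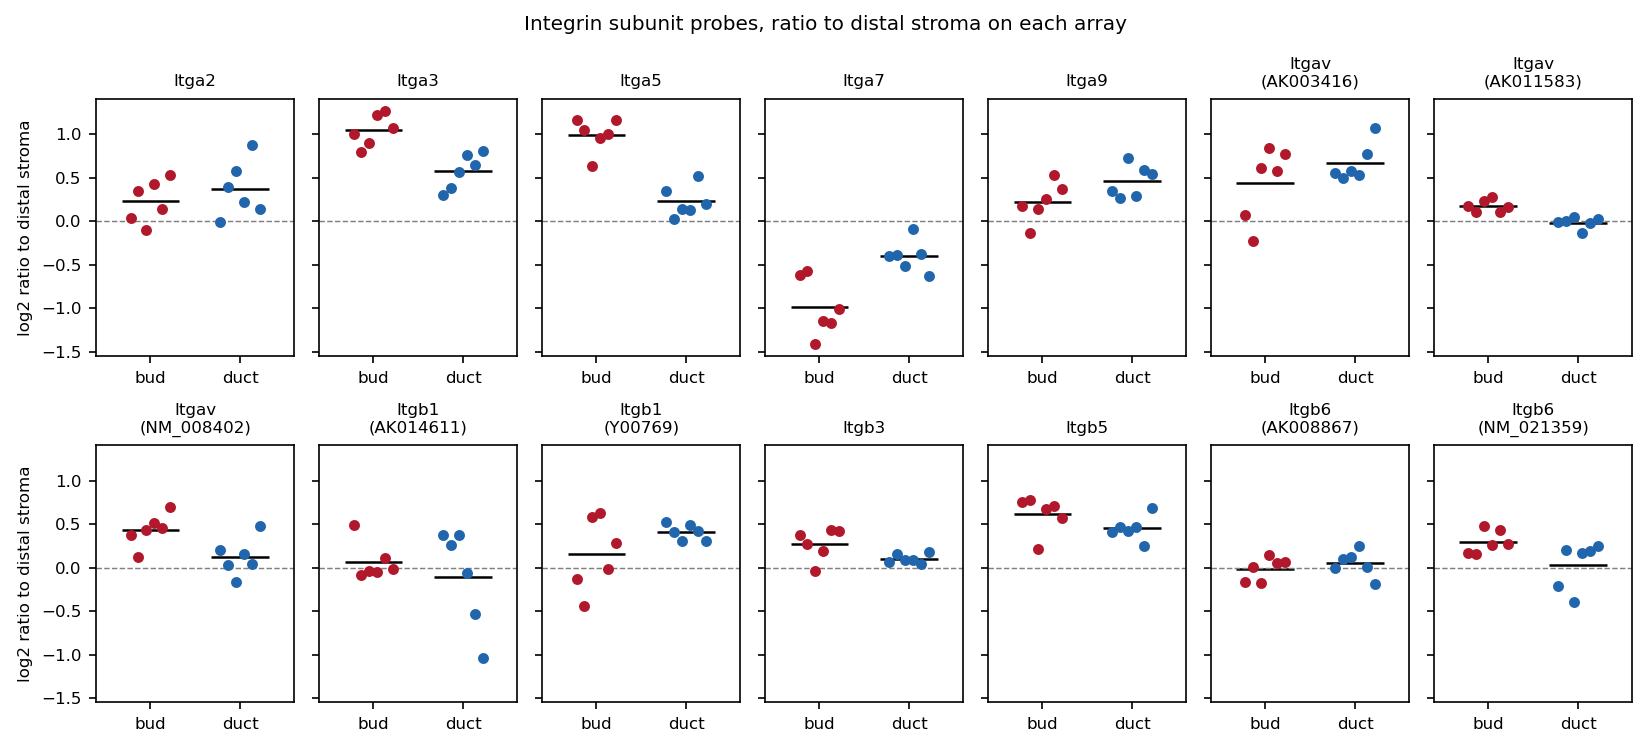
Log2 ratio to distal stroma (y axis) of the 14 probes on each of the 6 terminal end bud arrays (red, bud) and 6 duct arrays (blue), one panel per probe, with a bar at the group mean and a dashed line at the stromal level. Itga5 lies between 0.63 and 1.17 in terminal end buds and between 0.03 and 0.52 in ducts, without overlap, while the Itga7 points are below 0 on all arrays.

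Itga5, the alpha chain of the classical fibronectin receptor, showed the largest difference of the 14 probes. Its ratio to stroma in terminal end buds ran from 0.63 through a median of 1.02 to 1.17, and in ducts from 0.03 through 0.17 to 0.52. Every terminal end bud array was above every duct array. The means were 0.99 ± 0.20 (SD, n = 6) and 0.23 ± 0.18 (SD, n = 6), and the difference of 0.77 (SE 0.11, adjusted p = 0.00024) is 1.7-fold. An exact permutation test, two-sided, over the 6 and 6 arrays gave p = 0.00216, the smallest it can give. The difference stayed past the threshold after quantile normalization, at 0.58 with an adjusted p of 0.00437, and within the arrays whose titles hold early numbers (up to 193) or late numbers (from 196 on), at 0.92 and 0.69.

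Against stroma Itga5 was 1.99-fold higher in terminal end buds, with an adjusted p of 1.03e-07. In ducts its mean of 0.23 was called with an adjusted p of 0.039, a call that was lost when the duct array of replicate 1, 3, 4, 5 or 6 was left out. Without replicate 5 it was 0.17 with an adjusted p of 0.144. The duct call was also lost with centring (adjusted p = 0.0584) and another variance model (0.0593). Early or late title numbers alone did not give it either (0.352 and 0.103). It held after quantile normalization (0.0198) and with the common spread (0.0493). In dissected tissue, fewer cells of a type and less RNA per cell cannot be told apart. Of 16 marker genes of fibroblasts, which also express Itga5, 3 were higher in terminal end buds than in ducts and 3 were lower. After quantile normalization 1 was higher and 4 were lower, and with the common spread 1 and 3. Their mean ran from 0.09 to 0.99 on terminal end bud arrays and from 0.22 to 1.07 on duct arrays. Pdgfrb, a receptor of mesenchymal cells on the fibroblast and pericyte lists, stood at 1.38 and 0.59, a difference of 0.79 (adjusted p = 1.71e-05). The lists it belongs to had median differences of -0.23 (fibroblast) and -0.45 (pericyte, 1 higher and 6 lower of 10), so Pdgfrb does not stand for them. Its part in the Itga5 result was not tested.

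Itga3, the alpha chain of a receptor for laminins of epithelial basement membranes, was higher than stroma on all 12 arrays. In terminal end buds it ran from 0.80 through a median of 1.04 to 1.27, and in ducts from 0.295 through 0.61 to 0.81. The lowest terminal end bud value lay just under the highest duct value, and no other values of the groups crossed. The means of 1.04 ± 0.18 and 0.58 ± 0.20 (SD, n = 6 each) corresponded to 2.06-fold and 1.49-fold over stroma, with adjusted p of 7.76e-08 and 7.64e-05. Itga3 was the only one of the 14 probes past a doubling in either structure.

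The difference between the structures for Itga3 was 0.47 (SE 0.11, adjusted p = 0.00824), or 1.38-fold, and the exact permutation p was 0.00433. It did not pass after quantile normalization, at 0.19 with an adjusted p of 0.284, nor after bringing the arrays to a common spread, at 0.33 with an adjusted p of 0.058, nor over the 4 arrays with early title numbers alone, at 0.56 with an adjusted p of 0.0723. Luminal markers were 4 higher and 0 lower of 16 in terminal end buds against ducts, and basal and myoepithelial markers 3 higher and 5 lower of 12. With the common spread these counts were 0 higher and 1 lower for luminal markers (median 0.002) and 1 higher and 7 lower for basal ones, and Krt8 differed by 0.14 in place of 1.198. After quantile normalization the counts were 3 higher and 0 lower for luminal markers (median 0.186) and 1 higher and 6 lower for basal ones. The part of either cell type in the Itga3 difference was not tested.

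The promoters of Itga3 and Itga5, the subunits higher in terminal end buds, are shown as the 250 bases before the start site on the gene's own strand, from RefSeq (GRCm38.p6). Capitals mark each GC box, GGGCGG on either strand. Itga3 lies at chr11:95076715-95076964 and Itga5 at chr15:103366792-103367041, both on the minus strand.
Itga3: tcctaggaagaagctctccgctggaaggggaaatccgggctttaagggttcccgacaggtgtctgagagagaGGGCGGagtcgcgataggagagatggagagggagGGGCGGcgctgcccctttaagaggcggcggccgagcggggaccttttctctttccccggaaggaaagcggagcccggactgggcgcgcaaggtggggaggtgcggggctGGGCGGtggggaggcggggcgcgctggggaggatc
Itga5: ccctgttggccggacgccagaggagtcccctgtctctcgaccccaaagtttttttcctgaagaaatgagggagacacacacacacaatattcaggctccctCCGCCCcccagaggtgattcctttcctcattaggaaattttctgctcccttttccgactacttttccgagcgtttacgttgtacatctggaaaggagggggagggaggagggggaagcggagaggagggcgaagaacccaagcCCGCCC
The Itga3 window held 3 GC boxes and the Itga5 window 2. A GC box was present in 32.7% of 32851 mouse promoter windows of this length.

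Neither printed window held an AP-1 motif (TGANTCA, in 6.75% of all windows), a TEAD motif (GGAATG, 12.6%), a TATA box (TATAAA, 12.4%) or a CArG box (1.47%), with both strands searched. Windows were at hand for 8 of the 10 genes, not for Itga7 and Itgb3. Among the genes whose difference was not past the threshold, the Itgb5 window held 3 GC boxes, the Itgb1 window 1 GC box and 1 TEAD motif, and the Itga2, Itga9 and Itgav windows held none of the 5 motifs. Itga3 and Itgb6 had windows of 2 start sites: the other Itga3 window held 1 GC box, and of the Itgb6 windows one held no motif and the other 1 CArG box. Each match is a description of letters and shows no binding.

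Itga7, the alpha chain of the laminin receptor known from skeletal and smooth muscle, was the 1 member called below stroma. It ran from -1.41 through a median of -1.07 to -0.58 in terminal end buds and from -0.63 through -0.398 to -0.09 in ducts. All 12 values were negative, and the groups overlapped through 2 terminal end bud arrays at -0.62 and -0.58. The means were -0.99 ± 0.33 and -0.40 ± 0.18 (SD, n = 6 each), with adjusted p against stroma of 1.62e-06 and 0.00798. Ducts were 1.5-fold above terminal end buds, a difference of -0.59 (SE 0.14, adjusted p = 0.00923) with an exact permutation p of 0.00649.

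The Itga7 difference was also read within ranges of the array title numbers, which run from 190 to 203. Over the early ones, up to 193, with 2 arrays of each structure, it was -0.20 with an adjusted p of 0.447. Over the late ones, from 196 on, with 4 of each, it was -0.78 with an adjusted p of 0.00579. The change of the difference between these sets, -0.58 (SE 0.22), did not pass in the limma fit, with an adjusted p of 0.592 over all probes, and the sets were compared after their values had been seen. Ducts stood in the early and the late set at -0.398 and -0.401, and terminal end buds at -0.598 and -1.18. Itga7 was below stroma in both sets and both structures. The difference was -0.24 with an adjusted p of 0.307 after quantile normalization and -0.42 with an adjusted p of 0.0399 after bringing the arrays to a common spread.

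Markers of vessels, muscle, fat and basal epithelium were read beside Itga7. All 12 endothelial markers were lower than stroma in terminal end buds, 7 were in ducts, and 10 were lower in terminal end buds than in ducts (6 after quantile normalization). Their mean ran from -1.22 to -0.898 on terminal end bud arrays and from -0.52 to -0.14 on duct arrays. Between the structures, 6 of 10 vascular smooth muscle and pericyte markers were lower and 1 was higher in terminal end buds (3 lower after quantile normalization and 4 with the common spread), with means of -0.35 to -0.05 and 0.24 to 0.57. Of 12 skeletal muscle markers 1 was lower and 0 higher, with means of -0.24 to 0.06 and -0.20 to 0.01. After quantile normalization or with the common spread 0 skeletal muscle markers were lower and 0 higher. Of 12 basal and myoepithelial markers, 10 in terminal end buds and 12 in ducts were higher than stroma. The mean of this list ran from 1.24 to 1.74 on terminal end bud arrays and from 1.54 to 2.18 on duct arrays. White adipocyte markers were lower than stroma in terminal end buds for 10 of 11, and 7 were lower there than in ducts. The latter were 1 after quantile normalization and 5 with the common spread. The mean of the white adipocyte list ran from -1.77 to -1.17 on terminal end bud arrays and from -0.65 to -0.34 on duct arrays. All 7 brown adipocyte markers were lower than stroma in terminal end buds and 6 were in ducts. The part of these cell types in the Itga7 result was not tested.

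**Figure D2:**
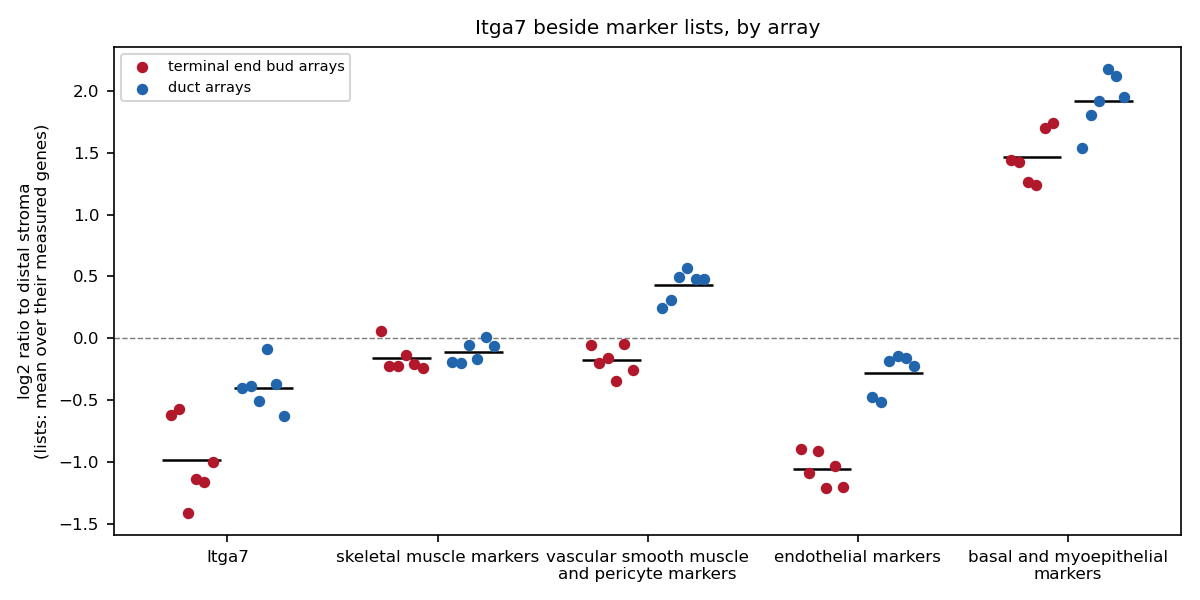
Log2 ratio to distal stroma (y axis) on each array of Itga7 and of the mean over 4 lists of cell type markers, for terminal end buds (red) and ducts (blue), with bars at group means. Itga7 and the endothelial mean are below 0 on all arrays, and the basal and myoepithelial mean is above 0 on all arrays. The endothelial mean does not overlap between groups (-1.22 to -0.898 and -0.52 to -0.14). The skeletal muscle mean overlaps (-0.24 to 0.06 and -0.20 to 0.01).

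Itga2, the alpha chain of a collagen receptor, ran from -0.10 through a median of 0.24 to 0.53 in terminal end buds and from -0.01 through 0.31 to 0.88 in ducts. The groups overlapped widely. The duct mean of 0.37 ± 0.32 (SD, n = 6) was above stroma with an adjusted p of 0.0185, and the terminal end bud mean of 0.23 ± 0.24 (SD, n = 6) did not pass, with an adjusted p of 0.0958. The structures differed by -0.14, with a 95% interval from -0.46 to 0.19 and an adjusted p of 0.607, so a call in ducts alone does not show that the structures differ. The duct call was lost without duct replicate 3, at 0.33 with an adjusted p of 0.0626, and without replicate 5, at 0.27 with an adjusted p of 0.0731.

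Itga9, whose ligands include tenascin-C, ran from -0.14 through a median of 0.22 to 0.54 in terminal end buds and from 0.26 through 0.45 to 0.72 in ducts. It was above stroma on all 6 duct arrays and on 5 of 6 terminal end bud arrays. The duct mean was 0.46 ± 0.19 (SD, n = 6, adjusted p = 0.00078). The terminal end bud mean was 0.22 ± 0.23 (SD, n = 6, adjusted p = 0.0391), and this call was lost when terminal end bud replicate 1, 3, 4, 5 or 6 was left out, with means of 0.16 to 0.296 over the 6 omissions. It was also lost with centring (adjusted p = 0.0531), quantile normalization (0.11), the common spread (0.0951), the group's 6 arrays alone (0.067) and the early title numbers alone (0.928). The difference of -0.23 between the structures had a 95% interval from -0.48 to 0.02 and an adjusted p of 0.206.

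The 3 Itgav probes did not give 1 pattern. Probe AK003416 ran from -0.22 through a median of 0.595 to 0.84 in terminal end buds and from 0.498 through 0.56 to 1.08 in ducts. Probe NM_008402 ran from 0.12 through 0.45 to 0.70 and from -0.17 through 0.097 to 0.48. Probe AK011583 stayed within 0.10 to 0.27 in terminal end buds and -0.14 to 0.05 in ducts. The first was higher in ducts by its means and the other two were higher in terminal end buds.

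In terminal end buds all 3 Itgav probes were above stroma, with means of 0.44 ± 0.42 (AK003416), 0.43 ± 0.19 (NM_008402) and 0.17 ± 0.07 (AK011583; SD, n = 6 each) and adjusted p of 0.0094, 0.000484 and 0.00613. In ducts AK003416 alone was, at 0.67 ± 0.22 (SD, n = 6, adjusted p = 0.000991). Over the early title numbers its terminal end bud mean was -0.08, against 0.701 over the late ones. Between the structures none of the 3 passed, with differences of -0.23 (95% interval from -0.60 to 0.15), 0.31 (0.06 to 0.55) and 0.19 (0.05 to 0.33).

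The smallest adjusted p of the Itgav differences was 0.0542, for AK011583, whose groups did not overlap. Its exact permutation p was 0.00216, or 0.0212 adjusted over all probes. In limma AK011583 passed with centring (adjusted p = 0.0476) and another variance model (0.0473). It did not pass after quantile normalization (0.0775) or with the common spread (0.0724). The NM_008402 difference, with an adjusted p of 0.0798, passed without terminal end bud replicate 2 (0.37, adjusted p = 0.0335) and without duct replicate 6 (0.38, adjusted p = 0.0247). It also passed with neighbouring title numbers as a block (adjusted p = 0.0403). After quantile normalization (0.298) or with the common spread (0.185) it did not. The mean of the 3 probes was above stroma in both structures, at 0.35 and 0.26 with adjusted p of 0.00125 and 0.0168, and differed by 0.09 between them with an adjusted p of 0.621.

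Itgb5, a beta partner of Itgav in vitronectin binding, was above stroma on all 12 arrays. It ran from 0.22 through a median of 0.69 to 0.78 in terminal end buds and from 0.25 through 0.44 to 0.69 in ducts. Terminal end bud replicate 3 was the lowest of the 12, apart from the other 5 of its group. The means of 0.62 ± 0.21 and 0.45 ± 0.14 (SD, n = 6 each) had adjusted p against stroma of 7.52e-06 and 0.000364. They differed by 0.17 (95% interval from -0.06 to 0.39, adjusted p = 0.322), which was not past the threshold.

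Itgb3, the beta chain shared by the vitronectin receptor and the platelet fibrinogen receptor, ran from -0.03 through a median of 0.33 to 0.44 in terminal end buds and from 0.04 through 0.09 to 0.18 in ducts. Its terminal end bud mean of 0.28 ± 0.18 (SD, n = 6) passed against stroma with an adjusted p of 0.00168, and the duct mean of 0.10 ± 0.06 (SD, n = 6) did not, with an adjusted p of 0.244. The difference was 0.18 (95% interval from -0.01 to 0.36, adjusted p = 0.194), and 0.24 with an adjusted p of 0.0363 without terminal end bud replicate 3. Of 7 platelet markers, 1 was higher and 3 were lower than stroma in terminal end buds and none passed in ducts. After quantile normalization 1 was higher and 1 lower in each structure. With the common spread 1 was higher and 3 lower in terminal end buds, and 0 higher and 1 lower in ducts. The part of platelets in the Itgb3 result was not tested.

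Itgb6, the epithelial beta chain whose receptor with Itgav activates latent TGF-beta, gave weak values. Probe NM_021359 ran from 0.16 through a median of 0.27 to 0.48 in terminal end buds and from -0.397 through 0.18 to 0.25 in ducts, and its terminal end bud mean of 0.295 ± 0.13 (SD, n = 6) passed against stroma with an adjusted p of 0.0099. Probe AK008867 lay between -0.18 and 0.25 on all 12 arrays and did not pass in any comparison. The mean of both probes in terminal end buds, 0.14 with an adjusted p of 0.0562, did not pass. Between the structures the probes differed by 0.26 (95% interval from 0.01 to 0.52, adjusted p = 0.157) and -0.06 (-0.25 to 0.13, adjusted p = 0.704).

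Itgb1, the common beta chain, gave no call between the structures. Probe Y00769 ran from -0.44 through a median of 0.14 to 0.63 in terminal end buds and from 0.301 through 0.42 to 0.53 in ducts. Ducts were above stroma on all 6 arrays, at 0.41 ± 0.09 (SD, n = 6, adjusted p = 0.014), while terminal end buds, at 0.15 ± 0.42 (SD, n = 6, adjusted p = 0.303), lay on both sides of 0. The terminal end bud mean was -0.28 over the early title numbers and 0.37 over the late ones, where it passed with an adjusted p of 0.0167. The difference between the structures was -0.26 (95% interval from -0.598 to 0.09, adjusted p = 0.325). Within the early numbers it was -0.75 with an adjusted p of 0.0449, and within the late ones -0.01, a change of 0.74 that did not pass (adjusted p = 0.536).

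The other Itgb1 probe, AK014611, spread widely in ducts, from -1.04 through a median of 0.098 to 0.38, and lay between -0.08 and 0.49 in terminal end buds. It passed in no comparison, and the mean of the 2 Itgb1 probes did not either, with 0.11 in terminal end buds and 0.15 in ducts (adjusted p = 0.403 and 0.284). The difference of AK014611 between the structures was 0.17, with a 95% interval from -0.30 to 0.65 (adjusted p = 0.667) that leaves room for a change of the size seen in Itga3.

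**Figure D3:**
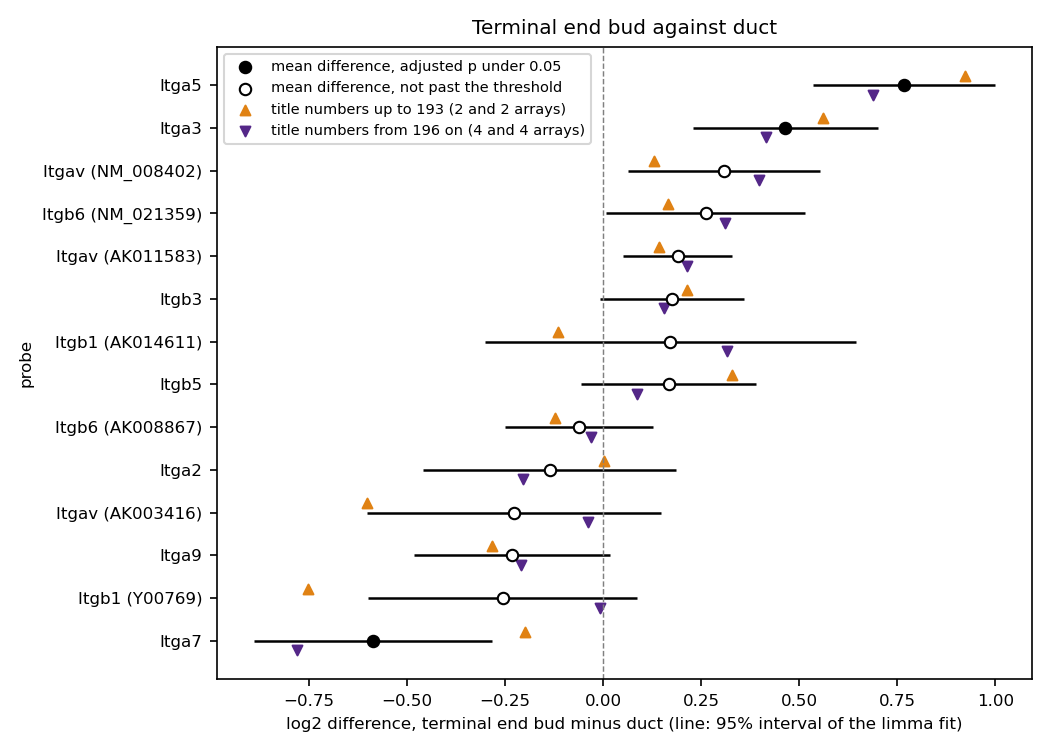
Mean log2 difference of terminal end bud minus duct (x axis) for the 14 probes, with the 95% interval of the limma fit, filled where past the threshold, and the differences within the early and late title numbers as triangles. Itga5 (0.77) and Itga3 (0.47) are to the right of 0 in both sets, and Itga7 is at -0.20 in the early set and -0.78 in the late one.

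Of 17 other integrin subunits 12 were measured. Itga6 and Itgb4, the chains of the hemidesmosome receptor for laminin, were higher than stroma in terminal end buds (1.196 and 1.41) and in ducts (0.96 and 0.77). Their differences between the structures, 0.24 and 0.65, did not pass, with adjusted p of 0.148 and 0.101. Itga8, which binds nephronectin and other RGD ligands, was the only one of the 12 that differed, being lower in terminal end buds by -0.82 (adjusted p = 0.00392), with 0.13 there and 0.95 in ducts. Against stroma 3 of the 12 were higher in terminal end buds and 5 in ducts, and none was lower.

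Ligands of the 3 subunits called between the structures, and of other members, were read from the lists of matrix genes. Laminins and nidogens, the ligands of Itga3 and Itga7, were higher than stroma for 5 of 12 genes and lower for 2 (Lama4 and Nid2) in terminal end buds, and higher for 6 and lower for 0 in ducts. Lama5, the alpha chain of the main epithelial laminins, was 1.59 and 1.69, and Lama1 was 1.67 and 0.92. Between the structures 2 of the 12 differed, both lower in terminal end buds, Lama4 by -0.51 and Nid2 by -0.54, both basement membrane components of vessels among other tissues. Of 15 collagens, ligands of the Itga2 receptor, 10 were higher than stroma in each structure. Col4a4 was lower than stroma in terminal end buds (-0.17, adjusted p = 0.0376), though not after quantile normalization (0.0804). Between the structures Col2a1 was higher (0.89) and Col3a1 lower (-1.22). After quantile normalization Lama4, Nid2 and Col2a1 did not pass, with adjusted p of 0.0575, 0.0943 and 0.0518.

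Of 21 measured RGD and other ligands, 6 stood above and 5 below their duct level in terminal end buds. Fn1, the ligand of the Itga5 receptor, was above stroma in both structures (1.77 and 1.28) and higher in terminal end buds by 0.498 with an adjusted p of 0.0151. It was 0.12 with an adjusted p of 0.669 after quantile normalization. Tnc, a ligand of the Itga9 receptor, stood at 1.15 and 0.16 (difference 0.996, adjusted p = 0.00868), and Thbs1 and Thbs2 rose by 0.996 and 1.08. Lower in terminal end buds were Fgg, a fibrinogen chain (-1.79), Tgfb3, whose latent form binds Itgav receptors (-0.86), and Mfge8, an RGD protein of milk fat globules (-0.73), all above stroma in both structures. The Fgg call against stroma in terminal end buds, 0.66 with an adjusted p of 0.0466, was lost with centring (0.0515), quantile normalization (0.0591) and the common spread (0.131).

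Inside the cell, the adaptors split as well. Tln1, talin, which activates integrins at the beta tail, rose from 0.44 in ducts to 1.38 in terminal end buds (difference 0.94, SE 0.08, adjusted p = 4.4e-06). Parva, the parvin of the complex with the integrin-linked kinase, rose from 0.196 to 0.88 (adjusted p = 0.00133). Tns1, a tensin, fell to -1.45 from -0.49, Lims2, a PINCH protein, to -1.45 from -0.73, and Dab2 was lower by -0.499. That left 2 higher, 3 lower and 10 not past the threshold of 15 measured adaptors. The kindlins Fermt1, Fermt2 and Fermt3 were listed but not measured. Lims2 did not pass after quantile normalization, at -0.23 with an adjusted p of 0.438.

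Ptk2, Ptk2b, Git1, Pak1 and Rock2 were among the listed kinases, scaffolds and actin linkers of focal adhesions that were not measured. Of the 24 measured, 6 passed as higher in terminal end buds and 6 as lower. After quantile normalization these counts were 4 and 6, and with the common spread 3 and 6. Zyx (1.15), Src (0.88) and Vasp (0.76) rose, the first and last being actin regulators of adhesions and Src a kinase that integrins activate. Cav1, the caveolin of endothelial cells and adipocytes among others, fell by 1.26, Yes1, a kinase of the Src family, fell by 0.93, and Rock1, which drives actomyosin contraction, fell by 0.50. The medians over the 15 adaptors and the 24 others were 0.08 and 0.14, against 0 over all probes. Endothelial and white adipocyte markers were lower in terminal end buds than in ducts for 10 of 12 and 7 of 11 genes (6 and 1 after quantile normalization), and their part in the Cav1 result was not tested.

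**Figure D4:**
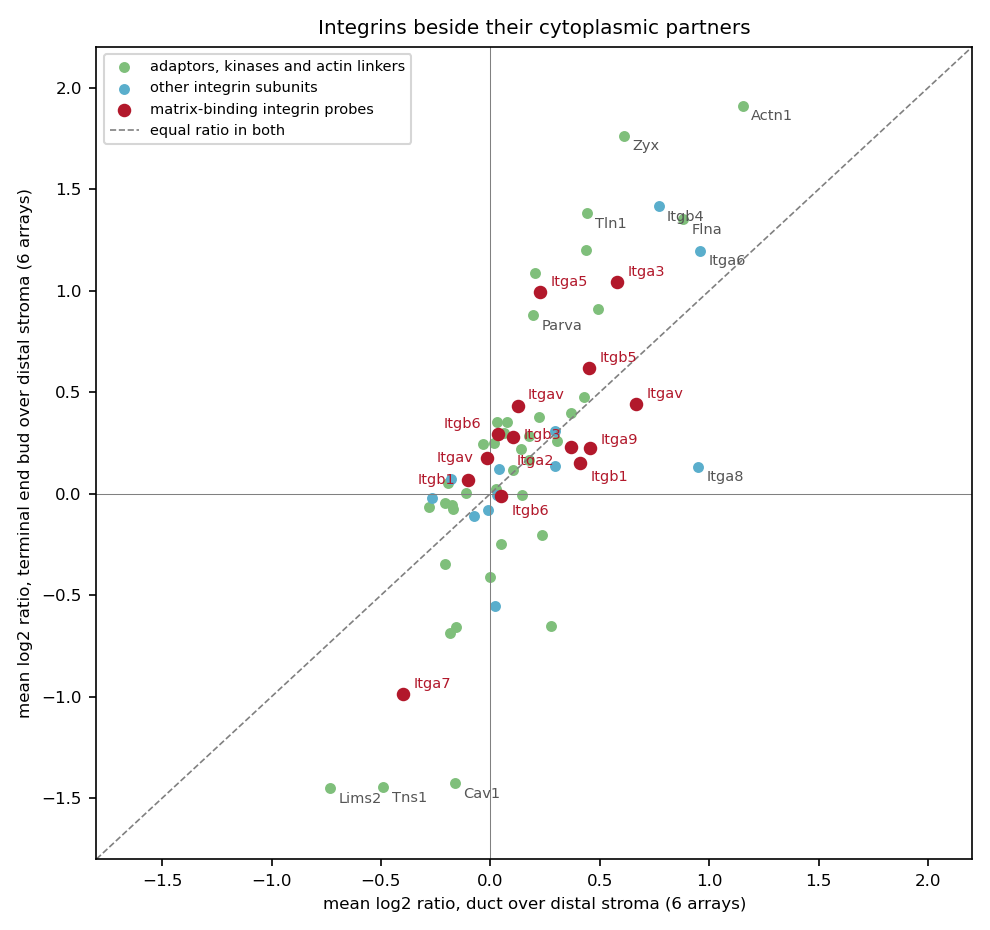
Mean log2 ratio to distal stroma in ducts (x axis) and in terminal end buds (y axis) for the 14 member probes (red), the other integrin subunits (blue) and the adaptors, kinases and actin linkers (green), 6 arrays each, with a dashed line of equal ratios. Itga5 (0.99 over 0.23) and Itga3 (1.04 over 0.58) lie above the line with Tln1 and Zyx, and Itga7 (-0.99 over -0.40) lies below it with Tns1, Lims2 and Cav1.

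Membrane proteins that associate with integrins were higher than stroma for 7 of 14 genes and lower for 1 in each structure. In terminal end buds against ducts 3 were higher and 1 lower. Sdc1, a heparan sulfate carrier that acts with integrins at the matrix, rose by 1.42 (adjusted p = 8.44e-05), and the tetraspanins Cd9, a partner of the Itga3 receptor among others, and Cd82 rose by 1.05 and 0.49. Cd36 fell by 1.23. After quantile normalization Cd9, Cd82 and Cd36 did not pass, with differences of 0.83, 0.12 and -0.58 and adjusted p of 0.0587, 0.654 and 0.0508. With the common spread Cd9 was 0.54 (adjusted p = 0.387) and Cd82 0.19 (0.559).

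The genes most like each called subunit over the 12 arrays are given as a description, since arrays of 2 structures with one kind of reference share much of their variation. For Itga5 they were Stip1 (r = 0.97), Mydgf (0.97) and Pdgfrb (0.96). For Itga3 they were Tcf3 (0.96), Zmiz2 (0.95) and Egln3 (0.95). For Itga7 they were Sod3 (0.98), Lims1 by its probe AK014954 (0.97) and Ggt5 (0.96). Another Lims1 probe, AK009390, stood at 0.12 in terminal end buds and 0.10 in ducts and passed in no comparison. For the other 11 member probes the highest r lay between 0.87 and 0.96. The search covered 12834 genes.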

How the data were processed

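The values deposited by the authors are normalized ratios from 12 arrays, read here as log2 of structure (Cy5) over stroma (Cy3), per the labels' dyes. The log base is not stated and natural logarithms remain possible, in which case folds would be larger. Scanner, background correction and normalization are steps not given in the sources used here. Spot brightness is unknown too, so only the number of arrays speaks for precision.

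Of 17589 probes, 14136 had 1 gene symbol in the platform annotation, 13 several, and 3440 were unnamed here. The members matched a RefSeq gene table (GRCm38.p6) by gene number. No member value was missing. Outside the members a gene was read from the probe with values on most arrays, then the first.

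One limma 3.58.1 fit (R 4.3.3) of 2 group means over 12 arrays gave each group against 0 and their difference, with moderated two-sided tests, Benjamini-Hochberg adjustment over all probes and a threshold of 0.05. The fit was tested on simulated data. The labels gave the groups. A replicate number is only a name. Every member probe is reported, and from each list up to 3 genes with the largest rise and 3 with the largest fall past the threshold in a comparison could be named. The members and lists were chosen with earlier results of these data known. Alternatives were centring, quantile normalization, a common spread, other filters and variance models, array weights, neighbouring title numbers as a block, early or late title numbers as a term, each array left out, probe means and a minimum size. Fits within early and within late title numbers, and a test of the change between them, were added after seeing the data.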

Additional observations from a re-analysis of the deposited data

Results flagged for a closer look

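Of 28 groups of 6 arrays examined, 1 for each probe and structure, 2 held an array far from the others, and chance alone gives about 1 in 20. The Itgb1 probe AK014611 was 0.488 on terminal end bud replicate 1, with the other 5 arrays between -0.08 and 0.11. Itgb5 was 0.218 on terminal end bud replicate 3, with the other 5 between 0.58 and 0.78. The ratio to stroma differed between the structures for 3 members by the limma test of the difference: Itga5 by 0.767, Itga3 by 0.465 and Itga7 by -0.587.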

How the results depend on the processing

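Over the 42 probe results (14 probes in 3 comparisons), 987 alternative values were computed: 919 kept their direction and their side of the threshold, 34 lost the call, 12 gained one and 22 changed sign. One of those that changed sign was called as reported, the Itgav probe AK003416 in terminal end buds against stroma, at -0.077 over early title numbers. The others were not called as reported, and one was called after its change of sign, Itgav AK011583 in ducts as the mean of the 3 Itgav probes (-0.017 to 0.258, adjusted p = 0.0168). They were, between the structures, Itga2 (early, 0.002), Itgb5 (quantile, -0.024), Itgav AK003416 and Itgb6 AK008867 (probe mean, 0.091 and 0.1) and Itgb1 AK014611 (early -0.115, probe mean -0.042, without duct replicate 6 -0.016, range over omitted arrays to 0.268). In terminal end buds against stroma they were Itgb1 Y00769 (early, -0.283), Itgb1 AK014611 (without replicate 1 -0.016, range to 0.098) and Itgb6 AK008867 (late 0.019, probe mean 0.141, without replicates 1 or 3 0.018 and 0.02, range from -0.044). In ducts against stroma they were Itgav AK011583 (probe mean 0.258, without replicate 4 0.008, range from -0.029), Itgb1 AK014611 (early 0.318, probe mean 0.153, without replicate 6 0.084, range from -0.2) and Itgb6 NM_021359 (early -0.003, without replicates 2 or 6 0 and -0.009, range to 0.12). The cause was not tested.

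Called member probes numbered 3 to 4 between the structures, 9 to 11 in terminal end buds and 6 to 8 in ducts as each array was left out. A minimum size of 1 left 419, 1269 and 424 of all probes (between structures, terminal end bud, duct) and 0, 1 and 0 members. Quantile normalization left 1 member between the structures. Early title numbers alone left 1023, 4663 and 2180 of all probes, and 5 and 4 members against stroma, with fewer arrays in the fit. The labels do not say whether arrays with neighbouring title numbers belong together. Deviations of the 6 neighbour pairs from their group means correlated at -0.06 to 0.28. The neighbouring duct array was the best match for terminal end bud replicates 1, 2 and 3, and not for 4, 5 and 6. As a block the pairs gave 4 called members between the structures. The number of arrays limits precision, and brightness over background could not be examined.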
